A study of Mus musculus with 12 samples.

Results

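The 8 genes described here are Dct, Tyr, Tyrp1, Pmel, Mlana, Slc45a2, Kit and Mitf, a set of melanocyte and pigment genes read as a check on stria vascularis left in dissected organs of Corti. They were selected by gene symbol rather than by a threshold on measured values, although earlier results of these data were known when the set was chosen. All 8 were among the 55348 genes counted in each of 12 RNA-sequencing libraries, and all 8 passed the filter on low counts that left 19052 genes for testing. Whole organs of Corti were collected from mice at postnatal day 21 (P21), and per the study's methods the stria vascularis and the modiolus were removed during dissection.

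The 4 genotypes had 3 libraries each. Clrn1-/- mice carried a constitutive deletion of exon 4 of Clrn1, made by crossing floxed mice with a line that expresses Cre under the PGK promoter. Clrn2-/- mice carried the clarinet allele, a nonsense mutation of Clrn2 present in every cell, and Clrn1-/-Clrn2-/- mice came from crosses of both lines. The wild-type mice were bred separately and were not littermates of the mutants, and a difference between breeding lines and an effect of genotype cannot be told apart in these comparisons. The sources used here do not state how many animals made up a library, and the p-values below measure the spread between these libraries.

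Melanocytes take part in hearing as the intermediate cells of the stria vascularis, the tissue of the cochlear lateral wall that secretes potassium into the endolymph. Intermediate cells release potassium through the channel Kcnj10, and the neighbouring marginal cells take it up and pass it on through the channel made of Kcnq1 and Kcne1. Pigment is made in melanosomes, where tyrosinase (Tyr) starts melanin synthesis, dopachrome tautomerase (Dct) and tyrosinase-related protein 1 (Tyrp1) act on later intermediates, Pmel forms the fibrils on which pigment settles, Slc45a2 is a membrane transporter needed for normal tyrosinase activity, and Mlana is a small melanosomal membrane protein. The transcription factor Mitf drives these genes in melanocytes, and the receptor Kit, which binds stem cell factor, supports melanocyte survival. Kit and Mitf are also used by cells that make no pigment, mast cells among them.

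Binding sites of Mitf-type factors lie close to the start sites of several pigment genes, and the sequences just before the start sites of 3 members are shown because these members did not move alike in the results below. RefSeq promoters (GRCm38.p6) were found for 5 of the 8 members, and there was no entry for Pmel, Mlana and Slc45a2. Windows of 300 bases around RefSeq start sites were searched on both strands for TCATGTG, for the M-box, which is TCATGTG with AG before it and CT after it, and for the E-box CACGTG. The 250 bases before the start site follow, 5′ to 3′ on the strand of the gene, for Dct (chr14:118052247-118052496, minus strand), Tyr (chr7:87493513-87493762, minus strand) and Tyrp1 (chr4:80833963-80834212, plus strand), with TCATGTG or its reverse complement in capitals.
Dct: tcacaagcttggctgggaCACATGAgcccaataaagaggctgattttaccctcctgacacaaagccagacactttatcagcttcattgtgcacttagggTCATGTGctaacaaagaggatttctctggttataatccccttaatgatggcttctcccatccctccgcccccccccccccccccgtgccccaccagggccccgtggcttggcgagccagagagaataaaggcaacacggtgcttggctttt
Tyr: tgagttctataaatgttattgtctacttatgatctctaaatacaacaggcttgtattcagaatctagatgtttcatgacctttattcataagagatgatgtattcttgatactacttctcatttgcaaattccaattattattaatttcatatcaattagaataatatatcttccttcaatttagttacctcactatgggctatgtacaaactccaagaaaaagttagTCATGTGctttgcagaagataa
Tyrp1: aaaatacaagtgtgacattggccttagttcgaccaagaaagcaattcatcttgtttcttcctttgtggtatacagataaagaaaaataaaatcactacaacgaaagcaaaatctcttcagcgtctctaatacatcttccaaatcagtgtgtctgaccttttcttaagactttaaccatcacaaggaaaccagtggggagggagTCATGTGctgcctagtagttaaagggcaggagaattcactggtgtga

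The whole M-box was present in the windows of Tyr, where it began 24 bases before the start site, and of Tyrp1, where it began 49 bases before it. It was found in 7 of the 32851 promoter windows of the table (0.0213%). The inner TCATGTG, which lies within the M-box and is counted there too, was found in 1239 windows (3.77%). The Dct window held 2 matches to it and no whole M-box, and the windows of Kit and Mitf held neither. The E-box CACGTG, present in 2349 windows (7.15%), was in none of the windows of the 5 members. These are matches of letters and were not tested as binding sites.

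Expression is reported in CPM, that is, reads of a gene relative to the reads of its library, with libraries normalized by the trimmed mean of M-values (TMM). The libraries held 30008679 to 41049302 counts on genes, so that the rarest member, Mlana, rested on 9 to 43 counts per library, Tyr on 19 to 137, Slc45a2 on 16 to 157 and Tyrp1 on 23 to 66. Kit and Mitf had at least 1351 and 1194 counts in every library. As a check of the genotypes, Clrn1 was at 23.8 to 28.6 CPM in wild-type at 2.69 to 3.04 CPM in Clrn1-/- libraries and at 1.77 to 2.71 CPM in double mutants. Clrn2 was at 1.89 to 3.24 CPM in wild-type and at 1.04 to 1.38 CPM in Clrn2-/- libraries, but it was as low in Clrn1-/- (0.853 to 1.04 CPM) and double mutant libraries (0.921 to 1.18 CPM), so its level does not check the Clrn2-/- label. A gene was called when the edgeR quasi-likelihood test, fitted to all 12 libraries and all tested genes, gave an adjusted p no higher than 0.05 together with a 1.5-fold or larger change.

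The members did not move as a single group. Dct, Tyr and Slc45a2 varied several-fold between libraries of the same genotype. Mlana did so in Clrn1-/- mice (ratio 4.57 of highest to lowest) but at most 1.89-fold in the other genotypes. Pmel and Tyrp1 differed between genotypes with less spread inside them, and Kit and Mitf varied least. Between the highest and the lowest of the 12 libraries the ratio was 13.3 for Pmel, 11.3 for Dct, 8.88 for Slc45a2, 7.39 for Tyr, 5.26 for Mlana, 2.65 for Tyrp1, 1.39 for Kit and 1.24 for Mitf.

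**Figure D1:**
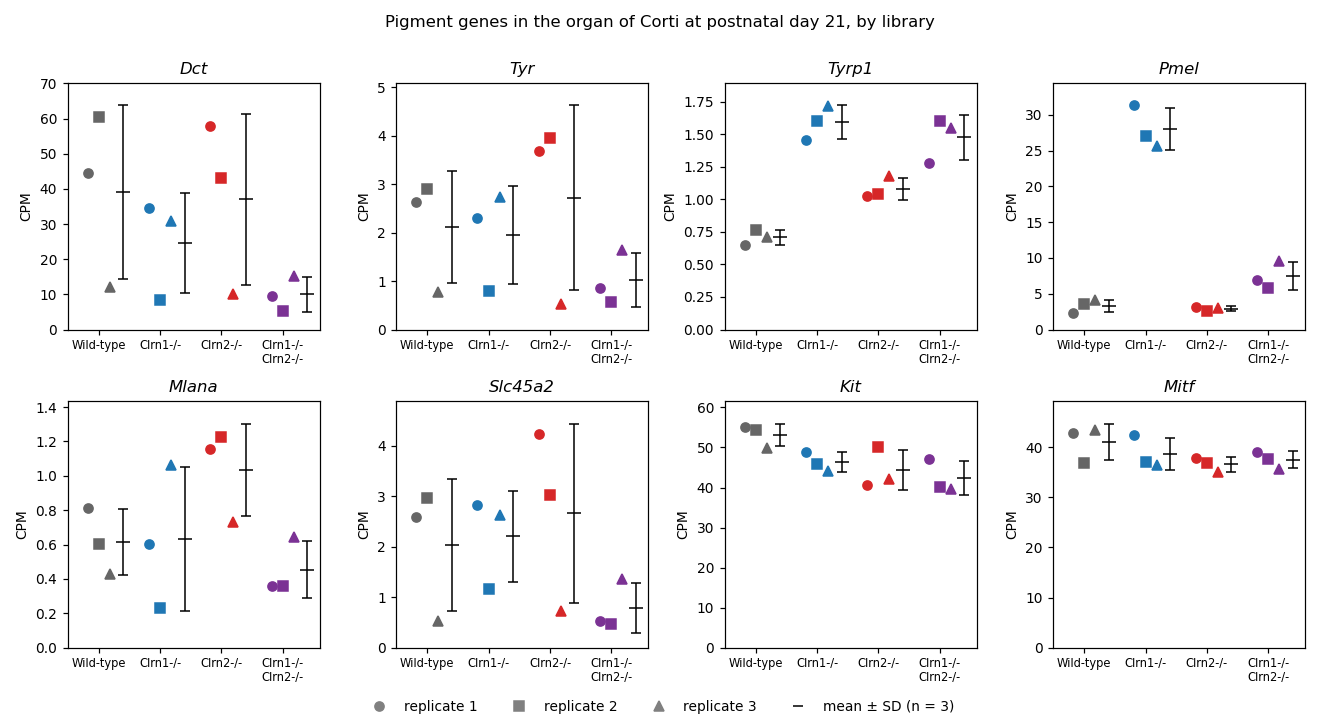
Level of each pigment gene (y axis, CPM) in the 12 libraries, by genotype (x axis), with marker shape for the replicate number and bars for the mean ± SD (n = 3). Pmel is at 25.6 to 31.3 CPM in Clrn1-/- libraries and at most 9.61 CPM in any other, while Dct ranges from 12.2 to 60.5 CPM within wild-type alone.

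Per kilobase of exon, the order of the members changed with the genotype. In wild-type the means were 6.63 CPM per kb for Dct, 6.62 for Mitf and 5.97 for Kit, 3 neighbours whose ranges overlapped, followed by Pmel at 1.44. Slc45a2 at 0.678, Mlana at 0.582, Tyr at 0.297 and Tyrp1 at 0.250 CPM per kb came last, and among them the libraries of Tyr ranged from 0.110 to 0.408 and enclosed the 0.228 to 0.271 of Tyrp1. In Clrn1-/- mice Pmel came first at 12.2 CPM per kb, with libraries at 11.2 to 13.7 that lay above the 5.89 to 6.85 of Mitf in second place. In double mutants Mitf at 6.05 and Kit at 4.74 led, Pmel followed at 3.25, and Dct was at 1.71 CPM per kb with libraries from 0.912 to 2.59 that overlapped the 2.50 to 4.19 of Pmel.

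Pmel, whose product builds the fibrils of the early melanosome, gave the largest fold among the members. It was at 2.36, 3.50 and 4.07 CPM in wild-type replicates 1, 2 and 3 and at 31.3, 27.0 and 25.6 CPM in Clrn1-/- mice. The Clrn2-/- libraries held 3.20, 2.60 and 2.98 CPM, and the double mutants held 6.98, 5.73 and 9.61 CPM. Every Clrn1-/- library was above every other library, the double mutants were all above wild-type and Clrn2-/-, and the last 2 genotypes overlapped. The means ± SD (n = 3) were 3.31 ± 0.873 CPM in wild-type, 28.0 ± 2.94 CPM in Clrn1-/-, 2.93 ± 0.303 CPM in Clrn2-/- and 7.44 ± 1.98 CPM in double mutants.

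Pmel rose 8.40-fold in Clrn1-/- mice against wild-type, or by 3.07 ± 0.18 on the log2 scale (± SE here and below; edgeR adjusted p = 8.13e-09). In Clrn2-/- mice the change was -0.18 ± 0.21 on the log2 scale (edgeR adjusted p = 0.637). In double mutants Pmel rose by 1.17 ± 0.19 on the log2 scale over wild-type (edgeR adjusted p = 0.000143) and was 1.35 ± 0.19 above Clrn2-/- (edgeR adjusted p = 0.000118), while against Clrn1-/- mice the double mutants differed by -1.90 ± 0.16 (edgeR adjusted p = 4.51e-07). The interaction of both genotypes, which asks whether the change with loss of Clrn1 differs where Clrn2 is also lost, was -1.72 ± 0.27 on the log2 scale (edgeR adjusted p = 0.000409). The order of Pmel was therefore Clrn1-/-, then double mutants, then wild-type and Clrn2-/-, with a tested difference at each step but the last.

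Pmel lies at chr10:128704195-128720238 on the plus strand (GRCm38) and shares its ends with neighbours on the minus strand, 837 bp with Cdk2 and 105 bp with Dgka. Reads on the strand opposite to Pmel numbered 114 to 164 in every library, against 0 to 7 at the other members, and the strand-specific counts used here leave them out. Cdk2, a cell cycle kinase, rose in Clrn1-/- mice by 0.61 ± 0.08 on the log2 scale (edgeR adjusted p = 3.02e-05), and Dgka, a diacylglycerol kinase, gave 0.09 ± 0.06 (edgeR adjusted p = 0.291). Counts summed over both strands gave the same call for Pmel in each comparison.

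Of 27 genes tested within 250 kb of Pmel, 2 were called in Clrn1-/- mice against wild-type, Cdk2 and, named after its values were seen, the ribosomal protein gene Rps26, beside 3.52% of all tested genes called higher and 3.7% called lower. Rps26 was at 94.3, 98.3 and 100.3 CPM in wild-type and at 50.4, 53.0 and 59.9 CPM in Clrn1-/- mice, with the Clrn2-/- and double mutant libraries at 93.0 to 105 CPM. It fell by 0.84 on the log2 scale (edgeR adjusted p = 2.80e-08), while Pmel rose in the same libraries. In double mutants Cd63, a tetraspanin of late endosomes and melanosomes named after its values were seen, was the single gene called in this window and rose by 0.64 (edgeR adjusted p = 2.25e-08).

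Tyrp1, which acts on late intermediates of melanin synthesis, also went with genotype. It was at 0.646, 0.767 and 0.708 CPM in wild-type, and at 1.45, 1.60 and 1.71 CPM in Clrn1-/- mice. Clrn2-/- libraries held 1.02, 1.04 and 1.18 CPM, and double mutant libraries held 1.28, 1.60 and 1.55 CPM. All mutant libraries were above all wild-type ones, Clrn2-/- lay between wild-type and the other mutants without overlap, and the Clrn1-/- and double mutant libraries overlapped. The highest and lowest libraries of a genotype differed by a ratio of at most 1.26.

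Tyrp1 rose in Clrn1-/- mice by 1.17 ± 0.18 on the log2 scale (edgeR adjusted p = 0.000221) and in double mutants by 1.06 ± 0.19 (edgeR adjusted p = 0.000292). In Clrn2-/- mice it rose by 0.61 ± 0.19 (edgeR adjusted p = 0.0463), a call that held in 5 of 21 alternative analyses, whose adjusted p ran from 0.0301 to 0.135. Clrn1-/- libraries exceeded those of Clrn2-/- by 0.56 ± 0.17 (edgeR adjusted p = 0.0347), which is under 1.5-fold and so was not called. The interaction, at -0.72 ± 0.26, missed the threshold (edgeR adjusted p = 0.0672). The change of Tyrp1 in CPM was small, from a mean of 0.707 ± 0.0604 CPM in wild-type to 1.59 ± 0.130 CPM in Clrn1-/- mice (SD, n = 3), and it did not run parallel to that of Pmel. Clrn2-/- libraries were above wild-type for Tyrp1 and overlapped it for Pmel, and Clrn1-/- and double mutants overlapped for Tyrp1 but not for Pmel. After subtraction of genotype means the correlation of both genes in log2 CPM was 0.102 over the 12 libraries.

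**Figure D2:**
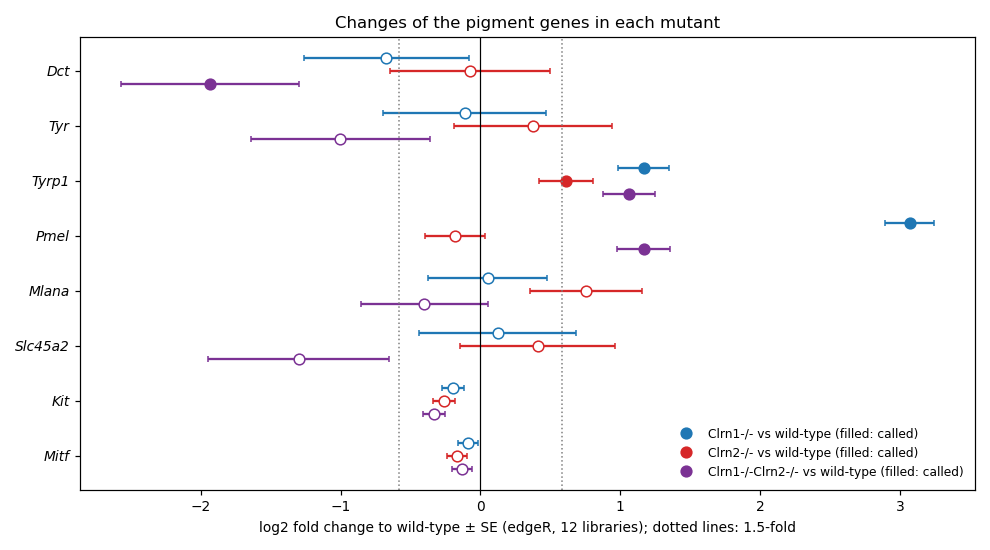
Log2 fold change to wild-type (x axis) ± SE of each pigment gene in the 3 mutants from the edgeR fit of 12 libraries, with filled circles for called changes and dotted lines at 1.5-fold. Pmel at 3.07 and Tyrp1 at 1.17 in Clrn1-/- mice have short error bars, whereas Dct, Tyr and Slc45a2 have standard errors above 0.5.

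Dct, the dopachrome tautomerase and a marker of melanocytes in the stria, varied widely inside each genotype. It was at 44.6, 60.5 and 12.2 CPM in wild-type and at 34.6, 8.35 and 31.0 CPM in Clrn1-/- mice. Clrn2-/- libraries held 57.8, 43.0 and 10.1 CPM, and double mutants held 9.63, 5.38 and 15.3 CPM. Each of the first 3 genotypes thus had 2 libraries at or above 31.0 CPM and 1 library at or below 12.2 CPM, and all 3 double mutant libraries were at or below 15.3 CPM. Wild-type replicate 3 lay inside the range of the double mutants, so these groups overlapped.

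The means ± SD (n = 3) of Dct were 39.1 ± 24.6 CPM in wild-type, 24.6 ± 14.2 CPM in Clrn1-/-, 37.0 ± 24.4 CPM in Clrn2-/- and 10.1 ± 4.97 CPM in double mutants. Neither single mutant passed the test, with -0.67 ± 0.59 on the log2 scale in Clrn1-/- and -0.08 ± 0.57 in Clrn2-/- (edgeR adjusted p = 0.438 and 0.952). In double mutants Dct fell by 1.93 on the log2 scale (SE 0.64; edgeR adjusted p = 0.0256) against wild-type and by 1.86 (SE 0.64; edgeR adjusted p = 0.0413) against Clrn2-/-. The first call was lost without wild-type replicate 1 (adjusted p = 0.0612), wild-type replicate 2 (0.104), double mutant replicate 1 (0.0694) or double mutant replicate 2 (0.105), and limma-voom did not make it (-1.74, adjusted p = 0.128). The call against Clrn2-/- was not firm either, as it held in 14 alternative analyses and was lost in 7. These 7 were limma-voom, DESeq2, a block for replicate number, and fits without replicate 1 or 2 of Clrn2-/- or of the double mutants.

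Tyr, the enzyme that limits melanin synthesis, was at 2.64, 2.90 and 0.784 CPM in wild-type and at 2.31, 0.802 and 2.73 CPM in Clrn1-/- mice. It was at 3.68, 3.95 and 0.534 CPM in Clrn2-/- mice and at 0.852, 0.564 and 1.65 CPM in double mutants. The low library of each single mutant and of wild-type was the same as for Dct, and all genotypes overlapped. No change of Tyr was called, with log2 fold changes to wild-type of -0.11 ± 0.58 in Clrn1-/-, 0.37 ± 0.56 in Clrn2-/- and -1.0 ± 0.64 in double mutants (edgeR adjusted p = 0.913, 0.724 and 0.243).

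Slc45a2, the melanosomal transporter, followed the same libraries at 2.58, 2.96 and 0.531 CPM in wild-type and 2.81, 1.16 and 2.62 CPM in Clrn1-/- mice. The Clrn2-/- libraries were at 4.22, 3.03 and 0.730 CPM and the double mutants at 0.524, 0.475 and 1.37 CPM. Its ranges overlapped between wild-type and each mutant, and no change was called, the log2 differences being 0.12 with loss of Clrn1, 0.41 with loss of Clrn2 and -1.30 with loss of both (edgeR adjusted p = 0.903, 0.688 and 0.132).

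Mlana, the small membrane protein of melanosomes, was at 0.814, 0.602 and 0.430 CPM in wild-type and at 0.601, 0.233 and 1.06 CPM in Clrn1-/- mice. Clrn2-/- mice had 1.16, 1.22 and 0.730 CPM and double mutants 0.360, 0.357 and 0.644 CPM. The lowest library was replicate 3 in wild-type and Clrn2-/- and replicate 2 in Clrn1-/-, as for Dct. The highest-to-lowest ratio was smaller than that of Dct in wild-type (1.89 against 4.95) and in Clrn2-/- (1.68 against 5.72). In Clrn1-/- it was 4.57 against 4.14 for Dct. The Clrn2-/- libraries were all above the double mutants, a log2 difference of -1.16 ± 0.42 for double mutants that just missed the threshold (edgeR adjusted p = 0.0540), and no change against wild-type was called.

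Kit and Mitf changed by less than 1.5-fold in every comparison. Kit was at 55.1, 54.5 and 50.0 CPM in wild-type and at 49.0, 45.9 and 44.2 CPM in Clrn1-/- mice. It was at 40.7, 50.2 and 42.2 CPM in Clrn2-/- mice and at 47.2, 40.1 and 39.5 CPM in double mutants. Wild-type was above both Clrn1-/- and double mutants without overlap, and Clrn2-/- replicate 2 reached the lowest wild-type library. The log2 fold change was -0.20 ± 0.08 in Clrn1-/- (edgeR adjusted p = 0.0776), -0.26 ± 0.08 in Clrn2-/- (edgeR adjusted p = 0.0380) and -0.33 ± 0.08 in double mutants (edgeR adjusted p = 0.00372), in each case under 1.5-fold. By adjusted p alone 7.07% and 17.9% of all tested genes were lower in Clrn2-/- and in double mutants. Kit lies on the same chromosome as Clrn2, 30.1 Mb from it.

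Mitf, the transcription factor of the lineage, was at 42.8, 36.8 and 43.5 CPM in wild-type and at 42.4, 37.1 and 36.5 CPM in Clrn1-/- mice. It was at 37.8, 36.9 and 35.0 CPM in Clrn2-/- mice and at 39.1, 37.6 and 35.7 CPM in double mutants, and all genotypes overlapped. Its log2 fold changes to wild-type, between -0.17 and -0.09, were not called (edgeR adjusted p = 0.390, 0.134 and 0.159 in Clrn1-/-, Clrn2-/- and double mutants). The libraries low in Dct did not stand out in Mitf, whose level per kilobase was as high as that of Dct in wild-type and above it in the double mutants.

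Counted over the set, 2 of 8 members were called higher and 0 lower in Clrn1-/- against wild-type, where 3.52% of all tested genes were called higher and 3.7% lower. In Clrn2-/- mice 1 member was called higher (all genes 1.24%) and 0 lower (all genes 1.42%), and in double mutants 2 were called higher (all genes 5.88%) and 1 lower (all genes 4.02%). Between mutants, Pmel was the single member called in Clrn1-/- against Clrn2-/- (all genes 4.73%) and in double mutants against Clrn1-/- (all genes 7.23%), and 2 members, Pmel and Dct, were called in double mutants against Clrn2-/- (all genes 5.1%). The interaction called Pmel alone (all genes 5.5%). The median log2 fold change of the 8 members against wild-type was -0.02 in Clrn1-/-, 0.15 in Clrn2-/- and -0.37 in double mutants, beside medians over all tested genes within 0.01 of 0. These 3 comparisons share the wild-type libraries.

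The libraries low in Dct were then compared with those low in other genes. The 6 libraries with the lowest Dct, at 5.38 to 15.3 CPM, were wild-type replicate 3, Clrn1-/- replicate 2, Clrn2-/- replicate 3 and the 3 double mutants, and the other 6 were at 31.0 to 60.5 CPM. The same 6 libraries were the lowest for Tyr and for Slc45a2, and 4 of them were among the 6 lowest for Mlana and for Kit. For Mitf the number was 3, and for Tyrp1 and Pmel it was 2.

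Several markers of stria marginal cells, which make no pigment, had the same low libraries. The 6 lowest libraries of Dct were also the 6 lowest for Kcne1, Kcnq1 and Esrrb, and 5 of the 6 were shared by Bsnd and Lrp2. Wnk2 shared 4 and Abcg1 shared 3 of the 6, no more than Mlana and Mitf did. Kcne1, a subunit of the apical potassium channel, was at 10.2, 11.7 and 3.39 CPM in wild-type, 9.11, 2.35 and 7.48 CPM in Clrn1-/-, 9.38, 6.91 and 2.92 CPM in Clrn2-/- and 2.62, 1.49 and 3.84 CPM in double mutants. Kcnq1, the pore subunit, was at 9.38, 11.1 and 5.44 CPM in wild-type, 7.52, 4.58 and 8.0 CPM in Clrn1-/-, 9.95, 7.71 and 5.14 CPM in Clrn2-/- and 5.64, 5.35 and 6.18 CPM in double mutants. None of the 8 marginal markers was at 0 in any library, the rarest being Bsnd at 0.0517 to 0.806 CPM.

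**Figure D3:**
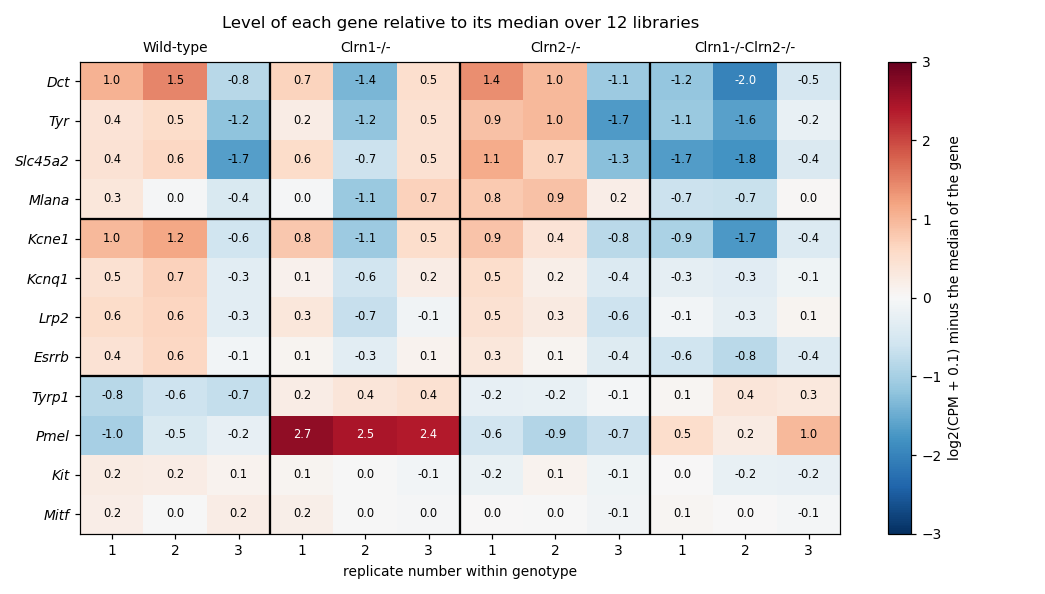
Level of each gene in each library as log2(CPM + 0.1) minus the median of the gene over the 12 libraries, with pigment genes above and below and 4 stria marginal markers between them. The 6 libraries low in Dct, Tyr and Slc45a2 are low in Kcne1, Kcnq1 and Esrrb too, and 5 of the 6 are among the lowest for Lrp2, while Pmel is high in the 3 Clrn1-/- libraries whatever their Dct.

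After subtraction of genotype means, the correlation over the 12 libraries between log2 CPM of a member and the mean of the 8 marginal markers was 0.99 for Dct, 0.966 for Slc45a2, 0.946 for Tyr and 0.737 for Mlana. It was 0.0147 for Pmel, -0.354 for Tyrp1, 0.253 for Kit and 0.0512 for Mitf. These values describe libraries that fall into a low and a high set, with a low library in each of 3 genotypes. Inside the 6 lower libraries the correlation of Dct with the marker mean was r = 0.884 and rho = 0.829, and inside the 6 higher ones it was r = 0.902 and rho = 0.943. By exact two-sided permutation tests p was 0.0194 and 0.0583 in the lower set and 0.0111 and 0.0167 in the higher set. Adjusted over the 8 relations examined, the smallest of these exact permutation p-values were 0.0778 for r and 0.133 for rho, so that neither passed. Without the 2 libraries of each set whose Dct lay farthest from the median Dct of that set, r was 0.579 and 0.754. The relations of Dct with Tyr, Slc45a2 and Mlana inside each set did not pass either, and with 6 libraries a set, divided by Dct itself, this does not show that they are absent.

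**Figure D4:**
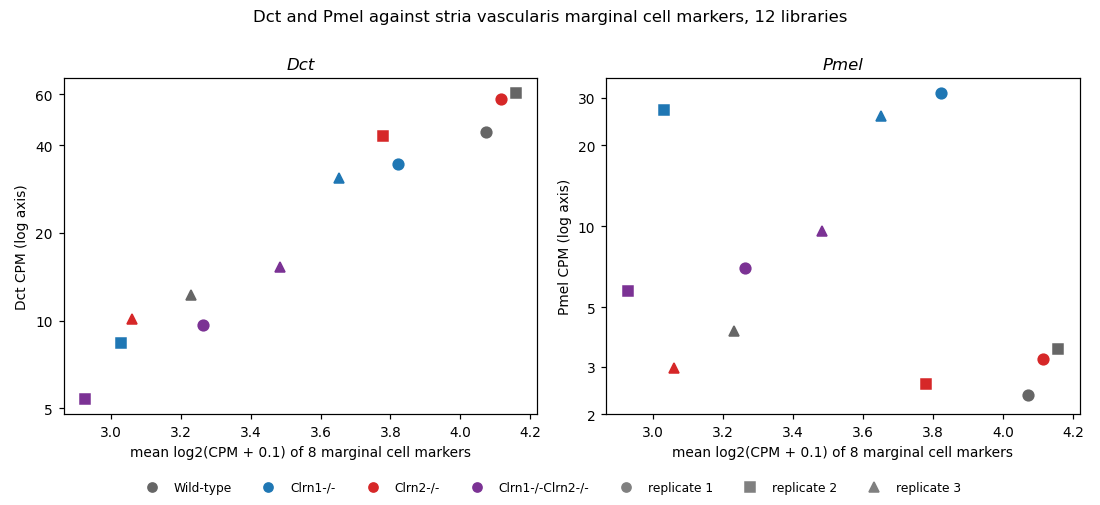
Dct (left) and Pmel (right) in CPM on a log axis against the mean log2(CPM + 0.1) of 8 stria marginal markers, with colour for genotype and marker shape for replicate. Dct is higher where the marker mean, which runs from 2.93 to 4.16, is higher, and Pmel separates by genotype instead.

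In bulk tissue, fewer cells of a type and less RNA per cell cannot be told apart. The marginal markers as a list were not lower in the single mutants by call, with 0 of 8 in either direction, and 2 of 8 were called lower in double mutants (all genes 4.02%). These were Kcne1, at -1.65 ± 0.52 on the log2 scale (edgeR adjusted p = 0.0212), and Esrrb, an orphan nuclear receptor of marginal cells, at -0.95 ± 0.19 (edgeR adjusted p = 0.000790). The summed level of the list was 381 to 467 CPM in wild-type, 342 to 389 in Clrn1-/-, 301 to 420 in Clrn2-/- and 314 to 350 CPM in double mutants. Every double mutant sum was below every wild-type sum, but the lowest Clrn2-/- sum was lower still. Wnk2, Abcg1 and Lrp2 made up most of these sums. Wnk2 was also lower in Clrn2-/- mice, where Dct was not called (-0.30 on the log2 scale, under 1.5-fold, edgeR adjusted p = 0.00842). The part of the list in the level of Dct was not tested. With the marker mean as a covariate, chosen after the data had been seen, the log2 fold change of Dct in double mutants against wild-type was -0.30 (edgeR adjusted p = 0.117). The marker mean correlated with Dct at 0.977 over the 12 libraries and holds Kcne1 and Esrrb, both called lower in this comparison. A smaller change of Dct in that fit therefore cannot decide the part of the list. The values of Pmel kept their calls in that fit.

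Other markers of stria intermediate cells, which are the pigment cells themselves, went another way. Of the list Kcnj10, Kcnj13, Met and Cd44, 4 of 4 were called higher in double mutants (all genes 5.88%). In each single mutant 1 of 4 was called higher (all genes 3.52% in Clrn1-/- and 1.24% in Clrn2-/-). Kcnj10, the channel through which intermediate cells release potassium and which glia and supporting cells also express, was at 194 to 238 CPM in wild-type and at 332 to 356 CPM in double mutants, and rose by 0.67 ± 0.06 on the log2 scale (edgeR adjusted p = 3.24e-07). Kcnj13, another inward rectifier, rose by 0.75 ± 0.15 (edgeR adjusted p = 0.000799). In Clrn1-/- mice Kcnj10 was at 287 to 304 CPM, above wild-type without overlap but under 1.5-fold (0.43 ± 0.06, edgeR adjusted p = 6.64e-05). Markers of supporting cells moved in double mutants as well, with 2 of 6 called higher (all genes 5.88%) and 1 lower (all genes 4.02%), namely Fgfr3 (0.94, edgeR adjusted p = 3.39e-06), Otogl (0.71, edgeR adjusted p = 6.51e-06) and Prox1 (-0.83, edgeR adjusted p = 1.61e-09). That list summed to 373 to 394 CPM in wild-type and 455 to 469 CPM in double mutants, and its part in the level of Kcnj10 was not tested. The lowest libraries of both channels shared 2 of 6 with those of Dct. The list summed to 249 to 293 CPM in wild-type, 366 to 381 in Clrn1-/-, 301 to 311 in Clrn2-/- and 443 to 468 CPM in double mutants. The members thus did not give a common reading of melanocytes. Of the genes taken as markers of intermediate cells, Dct, Tyr and Slc45a2 had low libraries in every genotype. Pmel was called higher in Clrn1-/- and double mutants, and Tyrp1 was called higher there and, less firmly, in Clrn2-/- mice. Kcnj10 was called higher in double mutants and was also above wild-type in Clrn1-/- mice.

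Genes that control the pigment lineage were examined as a list of 12, of which 11 were in the files and 10 were tested. None was called in the single mutants and 1 of 10 was called higher in double mutants (all genes 5.88%), with list medians of 0.16, 0.05 and 0.29 on the log2 scale in Clrn1-/-, Clrn2-/- and double mutants. In the interaction, Kitl, which encodes the ligand of Kit, was called at 0.79 ± 0.09 on the log2 scale (edgeR adjusted p = 3.61e-05). Against wild-type Kitl gave -0.37 in Clrn1-/- mice, 0.04 in Clrn2-/- mice and 0.47 in double mutants, all under 1.5-fold. The gene called against wild-type was Tfap2a, a transcription factor of neural crest and epidermis. It was at 1.68, 1.62 and 0.936 CPM in wild-type and at 2.69, 2.58 and 3.20 CPM in double mutants without overlap, and rose by 1.01 ± 0.21 on the log2 scale (edgeR adjusted p = 0.00148). Sox10, which activates Mitf in melanocytes and is also made by Schwann cells and supporting cells, was at 233 to 245 CPM in wild-type and at 317 to 336 CPM in double mutants without overlap, a difference of 0.44 ± 0.04 on the log2 scale that lay under 1.5-fold (edgeR adjusted p = 1.24e-06).

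A further list of 21 melanosome genes, covering biogenesis, transport and ion channels, was tested in 20 members. In Clrn1-/- mice 0 were called higher and 1 lower (all genes 3.7%), in Clrn2-/- mice none was called, and in double mutants 2 were called higher (all genes 5.88%) and 0 lower. The list medians were -0.05, -0.02 and -0.09 on the log2 scale. Trpm1, a cation channel of melanocytes and retinal bipolar cells, was at 0.955, 1.26 and 0.278 CPM in wild-type, and at 0.190, 0.155 and 0.208 CPM in Clrn1-/- mice. It was at 1.29, 1.10 and 0.309 CPM in Clrn2-/- mice and at 0.328, 0.327 and 0.361 CPM in double mutants.

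All Clrn1-/- libraries of Trpm1 lay below all others, also the replicates 1 and 3 that were high in Dct, Tyr and Slc45a2. Trpm1 fell by 2.14 on the log2 scale (SE 0.58; edgeR adjusted p = 0.0126) in Clrn1-/- mice, a call lost without wild-type replicate 2 (adjusted p = 0.0617), without Clrn1-/- replicate 2 (0.0527) and with limma-voom (-1.82, adjusted p = 0.0644). In the double mutants Atp7a, the copper transporter that supplies tyrosinase and many other enzymes, rose by 0.77 ± 0.09 (edgeR adjusted p = 3.43e-06) from a mean of 10.8 to 18.3 CPM. Rab32, a small GTPase of melanosome transport that macrophages also use, rose by 0.77 ± 0.13 (edgeR adjusted p = 0.000146) from 2.49 to 4.26 CPM.

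Genes most like the members were ranked by the Pearson correlation of log2 CPM over the 12 libraries, as a description that shares depth and dissection between all points. Nearest to Dct were Kcne1 (r = 0.983), Dnase1 (0.97), Tyr (0.948), Kcnq1 (0.945) and Krt7 (0.939), of which Kcne1 and Kcnq1 are marginal markers. After subtraction of genotype means they were Dnase1 (0.988), Kcne1 (0.987), Esrrb (0.983), Pm20d2 (0.977) and Tyr (0.971). Nearest to Tyr were Krt7 (0.971), Dct (0.948), Slc45a2 (0.946), Hpse (0.942) and Dnase1 (0.915), and after subtraction Krt7 (0.983), Gpnmb (0.983), Dct (0.971), Slc45a2 (0.96) and Synrg (0.959). Pmel, Tyrp1, Kit and Mitf were not among these genes.

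Nearest to Pmel were Alad (r = 0.977), Gm20075 (0.974), Gm3608 (0.971), Astn1 (0.971) and Cfap54 (0.97), none of them a pigment gene. Alad, an enzyme of haem synthesis on chromosome 4, was at 53.9, 50.9 and 57.4 CPM in wild-type and at 169, 160 and 172 CPM in Clrn1-/- mice. It was at 60.7, 55.1 and 58.6 CPM in Clrn2-/- mice and at 82.9, 71.9 and 77.9 CPM in double mutants, the same order of genotypes as Pmel, for which the 5 genes were selected. Against wild-type the log2 fold change in Clrn1-/- mice was 1.63 for Alad, 2.08 for Gm20075, 3.29 for Gm3608, 1.30 for Astn1 and 2.35 for Cfap54, values that the selection by likeness fixes in direction. They lie on chromosomes 4, 13, 1, 1 and 10, and Clrn1 itself lies on chromosome 3. After subtraction of genotype means the 5 genes nearest to Pmel were others, with r of 0.878 to 0.906.

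Kit was nearest to Sept8 (r = 0.958), AW011738 (0.936), Dennd5a (0.915), Wwp1 (0.884) and Apof (0.877), and Mitf to Mboat1 (0.906), Gprc5b (0.897), Exd1 (0.874), Myo18b (0.856) and Gm7887 (0.849). No member or stria marker was among the nearest genes of Kit or Mitf.

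Markers of other cells that use members of the set were read beside them. Mast cells express Kit and Mitf, and of 7 mast cell markers 2 passed the filter. Cpa3, a mast cell protease, was at 0 to 0.283 CPM, against 39.5 to 55.1 CPM for Kit, and Fcer1a, which encodes the alpha chain of the mast cell IgE receptor, was at 0 in 11 of 12 libraries. The list summed to 4.35 to 4.68 CPM in wild-type, 4.74 to 7.71 in Clrn1-/-, 6.76 to 8.43 in Clrn2-/- and 3.68 to 6.85 CPM in double mutants. Hdc, histidine decarboxylase, was called higher in both single mutants (0.65 and 0.72 on the log2 scale, edgeR adjusted p = 0.0247 and 0.0244). It made up most of the sum, with 4.62 to 7.58 CPM in Clrn1-/- libraries. The means of Cpa3, Cma1, Mcpt4, Tpsb2 and Ms4a2 were lower in Clrn1-/- mice than in wild-type (Cpa3 0.0364 against 0.157 CPM). In Clrn2-/- mice those of Cpa3, Cma1, Mcpt4 and Tpsb2 were higher than in wild-type, and none of these differences was called. Tpsb2, a tryptase, was called higher in double mutants (1.50, edgeR adjusted p = 0.0408), with groups that overlapped.

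Osteoclasts use Mitf as well, and 2 of 6 osteoclast markers passed the filter with none called. Of the macrophage markers, 1 of 7 was called higher in Clrn1-/- mice and 3 of 7 in double mutants, where 3.52% and 5.88% of all tested genes were called higher, with Cd68 at 0.92 as the largest (edgeR adjusted p = 6.10e-06). The summed macrophage markers were at 137 to 174 CPM in wild-type, 209 to 228 in Clrn1-/-, 152 to 196 in Clrn2-/- and 211 to 249 CPM in double mutants. They were thus above wild-type in the same 2 genotypes in which Pmel was called higher. Genes of bone marrow neutrophils were called higher in 5 of 8 in Clrn1-/- mice, led by Camp at 1.30 (edgeR adjusted p = 0.00415) and Ltf at 1.10 (edgeR adjusted p = 0.0274), and in 0 of 8 in the other mutants, with sums of 9.71 to 24.3 CPM in wild-type, 33.8 to 37.7 in Clrn1-/-, 22 to 25.8 in Clrn2-/- and 17.1 to 38.8 CPM in double mutants. The part of either list in the levels of Pmel was not tested.

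Fibrocytes of the lateral wall, the tissue next to the stria, gave another pattern. Of 6 markers, 2 were called lower in each single mutant (all genes 3.7% in Clrn1-/- and 1.42% in Clrn2-/-) and 1 in double mutants (all genes 4.02%). Otos, which encodes otospiralin, fell by 1.35 on the log2 scale in Clrn1-/- mice, by 1.13 in Clrn2-/- mice and by 0.77 in double mutants (edgeR adjusted p = 8.00e-06, 0.000123 and 0.000576). Coch, which encodes cochlin, fell by 0.61 and 0.64 in the single mutants (edgeR adjusted p = 0.000308 and 0.000433). The list summed to 6524 to 8840 CPM in wild-type, 4349 to 4791 in Clrn1-/-, 4370 to 4776 in Clrn2-/- and 6072 to 7549 CPM in double mutants, an order of genotypes unlike that of Dct, and its part in the levels of the pigment genes was not tested.

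Among 5 Schwann cell markers Cdh19 alone was called, higher in double mutants (0.62, edgeR adjusted p = 4.02e-06), where 5.88% of all tested genes were called higher. Basal cell markers of the stria were called in 0 of 4 in each mutant.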

How the data were processed

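RNA of whole organs of Corti was made into strand-specific poly-A libraries. The deposited counts are whole reads per gene, which the authors obtained with STAR on GRCm38.p6 without normalization, and the authors' own test was limma-voom. Of the 3 count columns, that of the library's strand was used, and the 4 totals of unassigned reads (13.5% to 15.8%) were left out. The test was that of edgeR 4.0.16 under R 4.3.3 (filterByExpr with a minimum count of 10, TMM, quasi-likelihood test, Benjamini-Hochberg adjustment), genotype being the sole term. limma 3.58.1, DESeq2 1.42.0, library size alone, no filter, unstranded counts, a replicate block, fewer genotypes and each library left out were alternatives, and the covariate of marginal markers was added after the data were seen. Correlations used log2(CPM + 0.1).

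Groups follow the genotype labels. The members and lists were chosen with earlier results of these data known. Named genes are the 8 members, called genes of the pigment lists, up to 4 called markers a list, defining markers, the 5 most alike genes and nearest neighbours. Some markers are not reported here. Coordinates and exon lengths came from Gencode M21 (GRCm38), which predates the release behind the counts. Same-numbered wild-type and Clrn1-/- libraries deviated together (r = 0.275, 0.127 and 0.106), so that comparison was also fitted with the block. The scripts were tested on simulated counts.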

Additional observations from a re-analysis of the deposited data

Results flagged for a closer look

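The change of Pmel with loss of Clrn1 differed by the state of Clrn2. Against the matching genotype with intact Clrn1, Pmel was higher by 3.07 on the log2 scale where Clrn2 was intact (Clrn1-/- against wild-type) and by 1.35 where Clrn2 was lost (double mutants against Clrn2-/-). The difference itself was tested as the interaction term of the edgeR fit and was -1.72 ± 0.27 on the log2 scale (adjusted p = 0.000409). All 3 Clrn1-/- libraries, at 25.6 to 31.3 CPM, were above all 3 double mutant libraries, at 5.73 to 9.61 CPM.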

How the results depend on the processing

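Pmel kept its calls against wild-type and Clrn2-/- in all 21 alternatives, with leave-one-out values of 2.88 to 3.25 in Clrn1-/- mice and 0.92 to 1.34 in double mutants, and its interaction kept its call in all 20, at -1.98 to -1.55. Dct lost its call against Clrn2-/- with limma-voom (-1.63), DESeq2 (adjusted p = 0.0637), the replicate block (-1.67, adjusted p = 0.0696) and without either of replicates 1 and 2 of Clrn2-/- or of the double mutants. The cause was not tested.

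Members called in Clrn2-/- against wild-type numbered 0 with limma-voom, DESeq2, no filter or only the genotypes compared, 2 with no fold minimum, and 0 to 1 without a library. Without the filter the counts were 5 in double mutants against wild-type, 2 in Clrn1-/- against Clrn2-/-, 4 in double mutants against Clrn1-/-, 5 against Clrn2-/- and 5 in the interaction, a fit that gave Dct an adjusted p of 6.51e-145 despite its spread. With no fold minimum 2 were called in Clrn1-/- against Clrn2-/-. With only the genotypes compared, 3 were called against Clrn1-/- and 4 against Clrn2-/- in double mutants. The last comparison gave 1 with limma-voom, 1 with the replicate block and 4 with unstranded counts. The interaction gave 2 with library size alone. With the marginal marker covariate, added after the data had been seen, 2 were called in double mutants against Clrn1-/- and 3 in the interaction. Without single libraries these counts ran from 2 to 4 in double mutants against wild-type, 1 to 2 in Clrn1-/- against Clrn2-/-, 1 to 2 in double mutants against Clrn1-/-, 1 to 5 against Clrn2-/- and 1 to 2 in the interaction.

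Direction turned in uncalled changes. With the covariate, Dct gave 0.19 and 0.30 and Tyr 0.71 in single mutants, and in double mutants Tyr gave 0.48, Mlana 0.21 and Slc45a2 0.23, while Slc45a2 was called higher in Clrn1-/- (1.02) and Clrn2-/- (0.77). Mlana in Clrn1-/- gave -0.15 with limma-voom. Without single libraries, values in Clrn1-/- ran from -0.52 to 0.28 for Tyr, -0.59 to 0.47 for Mlana and -0.35 to 0.51 for Slc45a2, and in Clrn2-/- from -0.56 to 0.39 for Dct, -0.031 to 0.87 for Tyr and -0.11 to 0.86 for Slc45a2. Alternatives were run for the members, Tfap2a, Trpm1, Atp7a and Rab32, not for the other genes named. Of their values, 631 kept direction and side of the threshold, 21 turned, 32 lost a call and 8 gained a call.

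Replicate numbers were shared between genotypes, and 7 of 18 same-numbered pairs deviated together with r above 0.1 (from -0.277 to 0.302 over 12453 genes). Apart from Dct against Clrn2-/-, the replicate block changed no call of a member. Low counts limit Mlana, Tyr, Slc45a2 and Tyrp1, and 3 libraries a genotype leave standard errors above 0.5 for Dct.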

Other observations

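Pomc, which encodes the precursor of melanocyte-stimulating hormone, was at 21.8 CPM in Clrn1-/- replicate 3 and at 1.57 to 3.86 CPM in the other 11 libraries, and its change was not called. In the window of 250 kb around Dct, Sox21, a transcription factor of supporting cells named after its values were seen, was at 11.5 to 12.9 CPM in wild-type and at 25.3 to 27.1 CPM in double mutants, and it was called higher there (log2 fold change 1.10). Around Slc45a2, Rxfp3 (0.62, with groups that overlapped) and Adamts12 (0.82), the latter named after its values were seen, were called higher in Clrn1-/- mice. Amacr, the nearest neighbour of Slc45a2, was not called there (0.004, edgeR adjusted p = 0.978). Gpnmb, a melanosomal glycoprotein related to Pmel that macrophages also make, was at 9.60, 11.3 and 4.25 CPM in wild-type and at 5.41, 3.13 and 5.61 CPM in Clrn1-/- mice. It was at 14.2, 13.5 and 4.33 CPM in Clrn2-/- mice and at 7.44, 6.51 and 9.61 CPM in double mutants, with no called change, so it did not share the high level of Pmel in Clrn1-/- libraries.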
